A study of Mus musculus with 2 samples.

Results

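The genes followed here are 9 genes of lipid handling, Cd36, Fabp4, Fabp5, Acsl1, Acsl4, Plin2, Dgat1, Dgat2 and Acadl, chosen by symbol among the 55487 genes of the count matrices. All 9 symbols were found, each for 1 gene. They were read in CD4 T cells of brown (BAT), subcutaneous (SAT) and visceral (VAT) adipose tissue and of spleen (SPLN), from untreated male wild-type C57BL/6J mice 8 weeks old. Live cells carrying TCRb, CD3 and CD4 had been sorted 2 times. Fat had been digested mechanically and with collagenase II, spleen only mechanically, and red cells were lysed in both. Cells of each sample carried a hashtag antibody, a barcoded label that tells pooled samples apart. The 2 droplet libraries (3-prime, 10x v3), 1 per experiment, each held 8 hashed samples, a biological duplicate of every tissue. Replicates 1 and 2 are those of experiment 1 (library 1), replicates 3 and 4 those of experiment 2 (library 2). The labels do not say whether duplicates came from separate animals, so p-values measure only the spread between these samples, and they do not name the visceral depot.

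Fatty acids enter cells in part through CD36, and fatty acid binding proteins such as FABP4 and FABP5 carry them in the cytosol. Long-chain acyl-CoA synthetases (ACSL1, ACSL4) activate them, after which they are either esterified by the diacylglycerol acyltransferases DGAT1 and DGAT2 and stored in droplets coated by perilipins such as PLIN2, or oxidised in mitochondria, where ACADL performs the first step for long chains. In fat, regulatory T cells (Treg cells, marked by Foxp3) are known for a program under the nuclear receptor PPARg, which also acts on lipid genes, and many of them carry ST2, the IL-33 receptor encoded by Il1rl1. CXCR6 is a chemokine receptor of effector and tissue-resident T cells.

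Library 1 held 29153747 UMIs (unique molecular identifiers, the counted molecules) in 4485 barcodes and library 2 held 43879975 in 12239. After a filter on cells 3985 and 9004 remained, of which hashtags placed 3375 and 6874 in 1 sample. The libraries shared 20 barcodes, 9 of them among the kept cells. The hashtags of SAT replicate 1 and BAT replicate 4 were weak. A cluster of 1495 cells with few UMIs, 1487 of them in library 2, was kept among the T cells, and small clusters of erythroid-like, stromal-like, endothelial-like, myeloid-like and B cell-like cells were left out. All 7 alpha-beta T markers were detected in every class described below, with Cd3e between 348 and 568 counts per 1000000 UMIs (CPM). Markers of B cells summed to 125.5 to 389.8 CPM in these classes and to 11645 and 14291 CPM in B cell-like cells.

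T cells were split into 4 classes by detected transcripts. Foxp3-positive cells (at least 1 UMI) numbered 83 and 51 with Il1rl1 and 218 and 354 without it in libraries 1 and 2. Foxp3-zero cells numbered 825 and 1320 with Cxcr6 and 2249 and 5567 without. The Treg markers fitted the split: all 5 of those tested were higher in Foxp3-positive than in Foxp3-zero cells, with a median log2 difference of 3.94 between the classes with Il1rl1 and with Cxcr6 and of 3.64 between those without. Cells with Cxcr6 had all 5 tested Th1 effector markers higher and all 6 naive markers lower than cells without it. Foxp3-positive cells with Il1rl1 had 5 of 6 naive markers lower than those without. A transcript is missed in many cells that hold it, so a class without Il1rl1 or Cxcr6 mixes cells that lack the gene with cells in which it was not caught. The same limit holds for Foxp3, so the Foxp3-zero classes can include Treg cells in which Foxp3 was not caught. The classes were compared on counts summed per library, 8 sums in 1 fit, and the tissues on counts summed per hashed sample, with the quasi-likelihood test of edgeR, Benjamini-Hochberg adjusted over all genes tested and called at an adjusted p under 0.05. A class sum held between 318718 and 24431217 UMIs.

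Promoter sequences are shown for Plin2, whose fold difference between the Il1rl1 classes was the largest of the 9 genes, for Cd36, which was nearly absent from T cells, and for Acadl. The sequences are the 250 bases before the start in RefSeq's table for GRCm38.p6, which had entries for 5 of the 9 genes. Capitals mark matches, on either strand, to the nuclear receptor half-site AGGTCA, which reads as TGACCT on the other strand and is repeated in PPARg-RXR elements, or to the CCAAT box.
Plin2: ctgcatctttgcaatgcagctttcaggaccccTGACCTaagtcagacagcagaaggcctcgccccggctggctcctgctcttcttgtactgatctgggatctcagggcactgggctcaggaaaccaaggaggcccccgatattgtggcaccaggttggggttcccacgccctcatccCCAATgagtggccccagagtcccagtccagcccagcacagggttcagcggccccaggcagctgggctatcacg
Cd36: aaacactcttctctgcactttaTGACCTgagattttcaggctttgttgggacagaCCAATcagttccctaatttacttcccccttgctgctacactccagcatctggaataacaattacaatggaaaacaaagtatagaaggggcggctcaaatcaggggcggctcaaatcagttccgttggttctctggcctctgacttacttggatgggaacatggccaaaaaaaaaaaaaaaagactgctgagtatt
Acadl: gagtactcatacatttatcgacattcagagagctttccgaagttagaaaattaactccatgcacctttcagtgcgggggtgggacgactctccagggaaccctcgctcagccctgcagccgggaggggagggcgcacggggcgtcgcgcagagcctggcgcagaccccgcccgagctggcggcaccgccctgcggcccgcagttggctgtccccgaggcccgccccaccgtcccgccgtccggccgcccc
The Plin2 stretch is chr4:86670060-86670309, the Cd36 stretch chr5:17835897-17836146 and the Acadl stretch chr1:66863310-66863559, all on the minus strand and written 5′ to 3′. Plin2 held a half-site 218 bases and a CCAAT box 73 bases before its start. Cd36 held a half-site at 228 bases and a CCAAT box at 195. AP-1 (TGANTCA) and E-box (CACGTG) letters were searched too, and Acadl matched none of the 4 motifs. Of all 32841 promoter stretches of this length, 14.0% held the half-site, 33.9% the CCAAT box, 6.75% the AP-1 letters and 6.02% the E-box. A match describes the letters and says nothing of binding.

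The storage genes Plin2 and Dgat1 and the carrier Fabp5 were highest in Foxp3-positive cells with Il1rl1. Against Foxp3-positive cells without Il1rl1, 3 of the 9 genes were called, all higher, where 5.48% of the 11543 genes tested were called in either direction and 2.98% were higher. The median log2 difference of the 9 genes was 0.48, and that of all genes tested was -0.03. The plot of levels by class shows the 9 genes in each library.

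**Figure D1:**
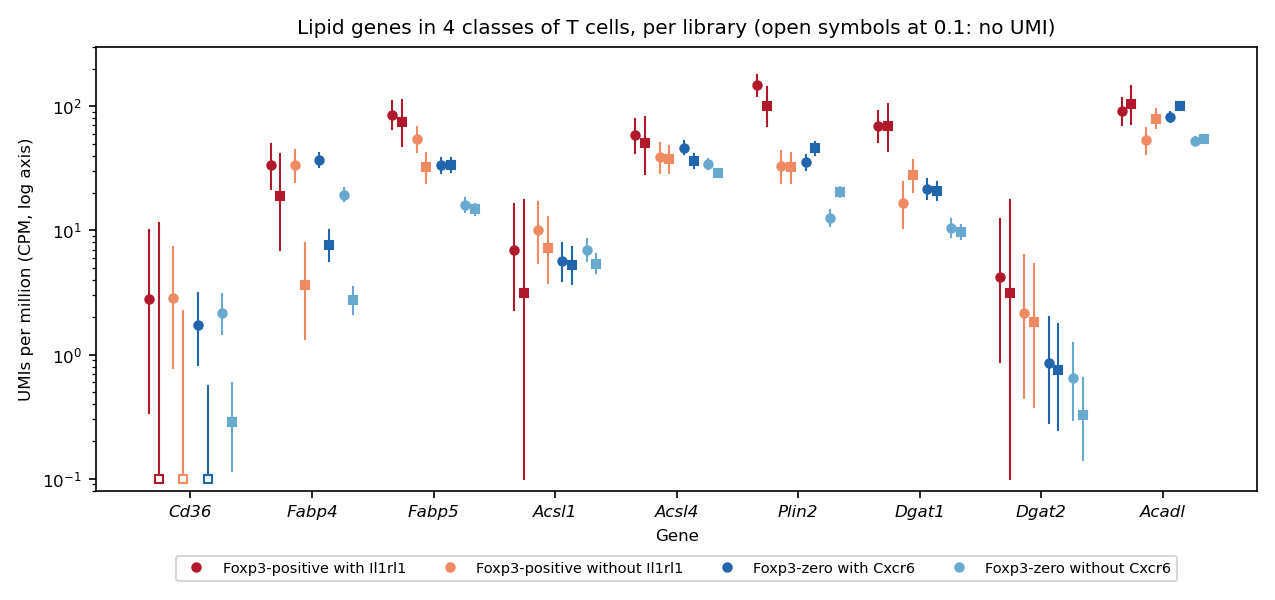
CPM (log axis) of each gene in the summed cells of 4 T cell classes, circles for library 1 and squares for library 2. Bars are exact 95% Poisson intervals for counting error only, and open symbols drawn at 0.1 stand for no UMI. Plin2 reached 148 and 100.4 CPM in Foxp3-positive cells with Il1rl1 and 12.6 and 20.4 in Foxp3-zero cells without Cxcr6.

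Plin2 (chr4:86648386-86670060, minus strand, mm10) encodes perilipin 2, the coat protein of lipid droplets in most cell types. Foxp3-positive cells with Il1rl1 held Plin2 at 148 CPM (106 UMIs) in library 1 and 100.4 CPM (32 UMIs) in library 2. Foxp3-positive cells without Il1rl1 held 32.9 and 32.1 CPM. The levels of the first class lay above those of the second in both libraries, with no overlap. The log2 difference was 2.03 ± 0.26 (SE; edgeR adjusted p = 6.6e-06). With library 2 alone it was 1.53 and with library 1 alone 2.10, values with no test.

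The cells with and without Il1rl1 came from the same hashed samples, so Plin2 was also compared within them. In 9 hashed samples with at least 5 cells of each kind, Plin2 was higher in the cells with Il1rl1 in 9 of 9. In SAT replicates 1 to 4 the levels with Il1rl1 were 125, 73.1, 194 and 310 CPM and those without were 31.1, 26.8, 13.4 and 63.0 CPM. In VAT replicates 1 to 4 they were 161, 285, 66.9 and 68.2 CPM with and 116, 40.3, 39.6 and 30 CPM without. In SPLN replicate 2, the sole spleen sample with enough cells, they were 72.5 and 3.74 CPM, from 4 UMIs and 1 UMI. The lowest value with Il1rl1 lay below the highest without, that of VAT replicate 1, so the groups overlapped across samples but not within any sample. With the hashed sample as a block the log2 difference was 1.64 ± 0.28 (edgeR adjusted p = 9.18e-05).

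**Figure D2:**
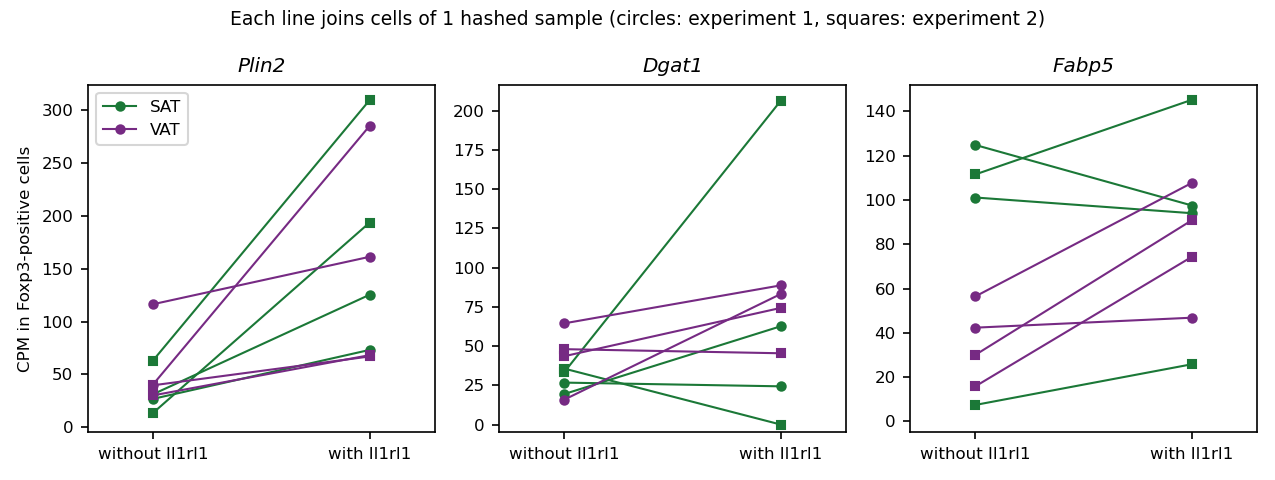
CPM of Plin2, Dgat1 and Fabp5 in Foxp3-positive cells without and with Il1rl1, each line joining the cells of 1 hashed sample of SAT or VAT (circles experiment 1, squares experiment 2). All 8 lines rise for Plin2, while Dgat1 has lines in both directions, and no UMI with Il1rl1 in SAT replicate 3.

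A Plin2 UMI was found in 44.6% of the cells with Il1rl1 in library 1 (95% exact interval 33.7% to 55.9%) and 39.2% in library 2 (25.8% to 53.9%). Without Il1rl1 the shares were 10.1% (6.43% to 14.9%) and 11.9%. B cell-like cells, taken here as a comparison of another lineage, had 10.3% (3 of 29, 2.19% to 27.4%) and 13.6% (3 of 22, 2.91% to 34.9%). The shares without Il1rl1 lay within these wide intervals. In library 2 the B cell-like interval also overlapped that of cells with Il1rl1, so these few cells set no background level. The median depth was 6987 and 4656 UMIs per cell with Il1rl1, 5586.5 and 4218 without, and 5485 and 4402 in B cell-like cells. After each cell was thinned to 1300 UMIs the shares were 14.5% and 17.6% with Il1rl1 against 3.67% and 4.48% without. Markers of myeloid cells, in which Plin2 stood at 337 and 140 CPM, summed to 190 and 191 CPM over the 8-gene list in cells with Il1rl1 and to 130 and 131 CPM without. Of the 8, 3 were at 0 in library 1 and 6 in library 2 in the cells with Il1rl1. Lyz2 stood at 5.58 and 3.14 CPM with Il1rl1 and at 10.7 and 2.43 CPM without, against 7641 and 3468 CPM in myeloid-like cells. The part of other cells in the Plin2 difference was not tested further.

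Dgat1 (chr15:76502015-76511953, minus strand), which catalyses the last step of triglyceride synthesis, stood at 69.8 and 69.0 CPM with Il1rl1 and at 16.5 and 27.9 CPM without. The libraries of the classes did not overlap, and the log2 difference was 1.56 ± 0.27 (edgeR adjusted p = 0.000428). Within hashed samples Dgat1 was higher with Il1rl1 in 6 of 9. The exceptions were SAT replicate 2 with 24.4 against 26.8 CPM, SAT replicate 3 with 0 against 35.7 CPM and VAT replicate 4 with 45.4 against 48.1 CPM. The 0 of SAT replicate 3 comes from 5 cells with 20650 UMIs and allows up to 145 CPM, so it gives no direction. With the hashed sample as a block the difference was 1.14 ± 0.36 and no longer called (edgeR adjusted p = 0.0644). That fit tested 4122 genes in place of 11543.

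Fabp5 (chr3:10012548-10016607, plus strand), the epidermal fatty acid binding protein, stood at 85.2 and 75.3 CPM with Il1rl1 and at 54.4 and 32.1 CPM without. Its log2 difference was 0.85 ± 0.23 (edgeR adjusted p = 0.0262), and it was higher with Il1rl1 in 7 of 9 hashed samples. With the hashed sample as a block it was 0.72 ± 0.29 and not called (edgeR adjusted p = 0.214). Dgat1 and Fabp5 therefore differed between the class sums, while the paired test did not call them. The paired test held fewer cells, those of the 9 hashed samples with at least 5 cells of each kind, and fewer genes. Its result thus differs in more than the pairing.

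The oxidation gene Acadl and the acyl-CoA synthetases did not pass the test for Il1rl1. Acadl (chr1:66830839-66863277, minus strand) stood at 90.7 and 103.5 CPM with and 53.0 and 79.4 CPM without Il1rl1, a log2 difference of 0.48 ± 0.19 (edgeR adjusted p = 0.181). Acsl4 (chrX:142317993-142390535, minus strand), which prefers polyunsaturated fatty acids, stood at 58.6 and 50.2 CPM with and 38.7 and 37.6 CPM without, a difference of 0.44 ± 0.23 (edgeR adjusted p = 0.355). For both genes the libraries of the classes did not overlap. Acsl1 (chr8:46471037-46536051, plus strand) was detected at 6.98 and 3.14 CPM with and 10.0 and 7.28 CPM without, from 5 UMIs and 1 UMI in the cells with Il1rl1, and its difference of -0.70 ± 0.63 was not called (edgeR adjusted p = 0.656).

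Dgat2 (chr7:99153658-99182719, minus strand), the other diacylglycerol acyltransferase, was close to the limit of detection. It had 3 UMIs and 1 UMI in Foxp3-positive cells with Il1rl1 (4.19 and 3.14 CPM) and 3 and 3 UMIs without (2.15 and 1.82 CPM). Foxp3-zero cells had 5 and 5 UMIs with Cxcr6 (0.858 and 0.753 CPM) and 9 and 8 without (0.648 and 0.327 CPM). No difference was detectable for Dgat2 in the Il1rl1 comparison at this depth (log2 difference 0.78 ± 1.06, edgeR adjusted p = 0.799).

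Foxp3-zero cells hold the conventional CD4 T cells and any Treg cells in which Foxp3 was missed. In them 5 of the 9 genes were higher with Cxcr6 than without, namely Plin2, Dgat1, Fabp4, Fabp5 and Acadl. The test called 41.0% of all genes in this comparison, and 22.0% of all genes were higher, so a call here says little about a lipid gene in particular. The median log2 difference of the 9 genes was 0.61 and that of all genes tested was 0.00. Cells with Cxcr6 made up 30.8% to 52.4% of the Foxp3-zero cells in the SAT samples and 27.7% to 46.5% in VAT, but 6.67% to 10.6% in BAT and 3.78% to 5.87% in spleen. The class sums therefore differ in tissue as well, and the values within hashed samples are given beside them.

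Plin2 stood at 35.4 and 45.8 CPM with Cxcr6 and 12.6 and 20.4 CPM without, a log2 difference of 1.1 ± 0.14 (edgeR adjusted p = 5.24e-07). It was higher with Cxcr6 in 13 of 16 hashed samples. Dgat1 stood at 21.6 and 20.8 CPM with and 10.5 and 9.78 CPM without, a difference of 0.89 ± 0.15 (edgeR adjusted p = 3.5e-05), in the same direction in 13 of 16 samples. Fabp5 stood at 33.5 and 33.7 CPM with and 16.1 and 14.7 CPM without, a difference of 0.95 ± 0.12 (edgeR adjusted p = 8.28e-07), in 14 of 16 samples. These genes of storage and transport thus lay about 1 log2 unit apart, with no overlap between the libraries of the classes.

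Acadl stood at 81.4 and 101.0 CPM with Cxcr6 and at 52.4 and 54 CPM without. Its log2 difference of 0.61 ± 0.08 (edgeR adjusted p = 2.18e-06) was smaller, but the direction held in 16 of 16 hashed samples. Across these samples the level with Cxcr6 ran from 47.5 through a median of 87.3 to 109.6 CPM, and without Cxcr6 from 35.9 through 52.4 to 81.1 CPM. With the hashed sample as a block all 5 genes were still called, Acadl with a difference of 0.41 ± 0.08 (edgeR adjusted p = 9.63e-05). Acsl4 stood at 46.4 and 36.4 CPM with and 34.2 and 28.9 CPM without, and its difference of 0.21 ± 0.09 was not called (edgeR adjusted p = 0.068). Scaled by library size alone it was called, at 0.39 (edgeR adjusted p = 0.00123). Acsl1 stood at 5.67 and 5.27 CPM with and 6.99 and 5.40 CPM without, and its difference of -0.34 ± 0.23 was not called (edgeR adjusted p = 0.264).

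**Figure D3:**
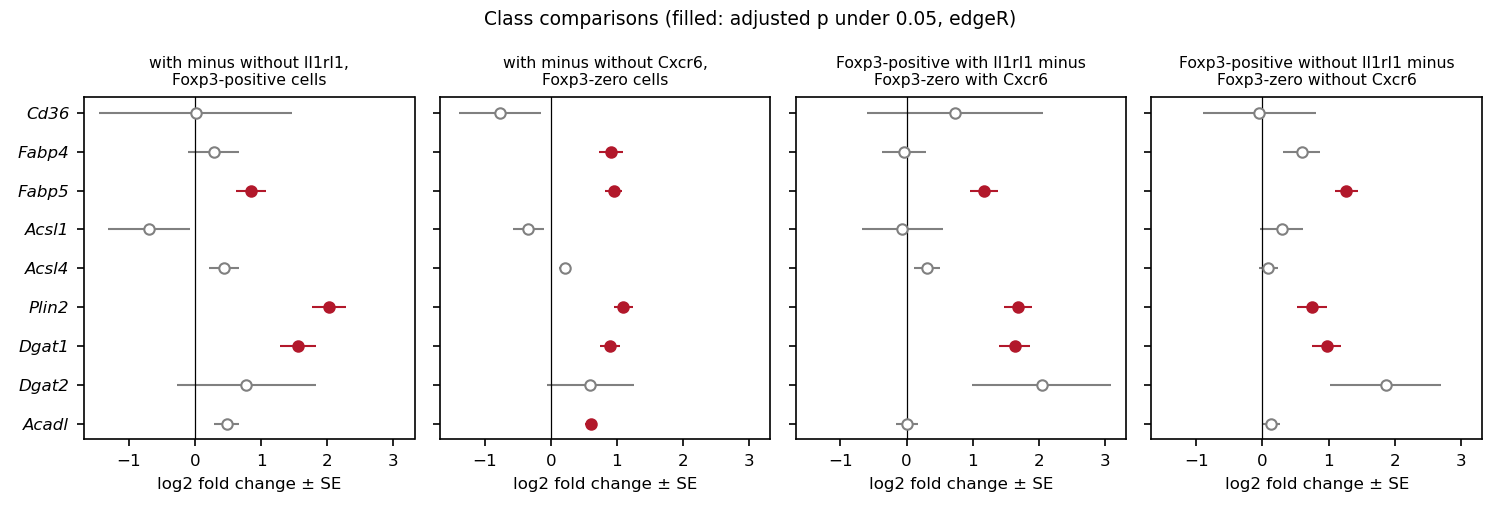
Log2 fold changes with standard errors of the 9 genes in 4 comparisons of T cell classes, 8 sums in 1 fit. Filled points passed an adjusted p under 0.05 in edgeR. Plin2, Dgat1 and Fabp5 passed in all 4 panels, Acadl and Fabp4 with Cxcr6 against without only.

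The other comparisons set Foxp3-positive against Foxp3-zero cells, and share their sums with those above. The values are of class sums, not of pairs within hashed samples, and the classes differ in tissue. Cells placed in BAT, SAT, VAT and SPLN numbered 11, 36, 75 and 10 with Foxp3 and Il1rl1. Foxp3-zero cells with Cxcr6 numbered 195, 928, 786 and 107. Between Foxp3-positive cells with Il1rl1 and Foxp3-zero cells with Cxcr6, 3 of the 9 genes were called, all higher in the former, where the test called 10.8% of all genes and 5.42% were higher. The median log2 difference of the 9 genes was 0.73 against -0.05 for all genes. That median is the value of Cd36 (0.73 ± 1.33), which had 2 UMIs and 0 UMIs in the class with Il1rl1. Plin2 differed by 1.69 ± 0.21 (edgeR adjusted p = 2.52e-06), with library 2 alone giving 0.99 and library 1 alone 1.99. Dgat1 differed by 1.63 ± 0.24 (edgeR adjusted p = 1.8e-05) and Fabp5 by 1.17 ± 0.21 (edgeR adjusted p = 0.000301). Acadl differed by 0.01 ± 0.16 (edgeR adjusted p = 0.984), its levels of 90.7 and 103.5 CPM standing beside 81.4 and 101.0 CPM.

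Between the classes without the receptor transcripts, the same 3 genes were higher in Foxp3-positive cells, where the test called 16.1% of all genes and 9.16% were higher. Cells placed in BAT, SAT, VAT and SPLN numbered 80, 142, 136 and 182 in the Foxp3-positive class. In the Foxp3-zero class they numbered 2129, 1352, 1452 and 2312. The median log2 difference was 0.59 for the 9 genes and -0.01 for all genes. That median is the value of Fabp4 (0.59 ± 0.28, edgeR adjusted p = 0.163, not called). In library 1, 1 cell held 20 of the 47 Fabp4 UMIs of the Foxp3-positive class. Fabp5 differed by 1.27 ± 0.18 (edgeR adjusted p = 6.32e-06), with 0.90 in library 2 alone and 1.58 in library 1 alone. Dgat1 differed by 0.97 ± 0.23 (edgeR adjusted p = 0.00303), with 1.29 and 0.47. Plin2 differed by 0.75 ± 0.22 (edgeR adjusted p = 0.0215), with 0.43 and 1.21. This call of Plin2 was lost in 5 alternative fits, that of Fabp5 in 2 and that of Dgat1 in 1. For Plin2 they included DESeq2 (adjusted p = 0.114), thinned counts, and the fit that kept cells with hashtags of several samples (edgeR adjusted p = 0.0659). Acadl, at 53.0 and 79.4 CPM against 52.4 and 54 CPM, differed by 0.14 ± 0.12 and was not called (edgeR adjusted p = 0.543).

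Fabp4 and Cd36 are abundant in endothelial cells and adipocytes, and their levels in T cells have to be read beside those of the other cells in the droplets. Fabp4 (chr3:10204088-10208576, minus strand) stood at 37764 and 35500 CPM in endothelial-like cells and at 2021 and 3891 CPM in stromal-like cells. Cd36 (chr5:17781690-17888801, minus strand) stood at 4639 and 4298 CPM in endothelial-like and at 258 and 393 CPM in stromal-like cells. Barcodes under the cell filter had 1659 and 184.5 CPM of Fabp4 and 125 and 14.1 CPM of Cd36. They held erythroid markers at 262480 and 59960 CPM and alpha-beta T markers at 2878 and 5782 CPM. They are therefore not a measure of free RNA alone.

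In T cells Fabp4 followed the library more than the class. It stood at 33.5, 33.7, 36.9 and 19.4 CPM in library 1 and at 18.8, 3.64, 7.68 and 2.74 CPM in library 2, in the order Foxp3-positive with and without Il1rl1, then Foxp3-zero with and without Cxcr6. By hashed sample the T cells held 14.1 to 38.0 CPM in library 1 and 0.659 to 6.92 CPM in library 2, with no overlap. Library 1 had 82 endothelial-like cells and library 2 had 13. No endothelial-like cell was placed in spleen, and the T cells of spleen replicates 1 and 2 held 18.0 and 14.1 CPM of Fabp4. The endothelial marker list of 6 genes summed to 28.9 to 93.2 CPM in the 4 classes, highest in Foxp3-zero cells without Cxcr6 of library 1, where Fabp4 was lowest of that library, and to 7808 and 8369 CPM in endothelial-like cells. Its members Cdh5, Kdr and Cldn5 each stood between 0 and 1.43 CPM, so most of the sums came from the other 3 genes. In Foxp3-zero cells without Cxcr6, Cdh5 stood at 1.22 CPM in library 1 and 0.041 in library 2, and Cldn5 at 1.297 and 0.082. With Cxcr6 Cdh5 stood at 1.202 and 0.151 CPM and Cldn5 at 1.374 and 0. In Foxp3-zero cells Cdh5 and Cldn5 were thus higher in library 1, as Fabp4 was, though from at most 18 UMIs per class. The ratio of Fabp4 to Cd36 UMIs was 8.14 in endothelial-like cells of library 1, 13.3 in its barcodes under the filter and 8.97 to 21.5 in its 4 T cell classes.

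Fabp4 was called higher in Foxp3-zero cells with Cxcr6 than without (log2 difference 0.92 ± 0.18, edgeR adjusted p = 0.000207), but not with DESeq2 (adjusted p = 0.0706). In library 1, 8 of the 825 cells with Cxcr6 had at least 5 Fabp4 UMIs each and together held 105 of the class's 215. Without cells of that kind the level was 19.1 CPM with Cxcr6 and 17.5 CPM without in library 1, and 6.18 and 2.74 CPM in library 2. In Foxp3-positive cells without Il1rl1, 1 cell of BAT replicate 1 held 20 of the 47 Fabp4 UMIs of library 1. The Il1rl1 comparison of Fabp4 gave 0.28 ± 0.39 and was not called (edgeR adjusted p = 0.803). A share of 12.8% of the cells with Cxcr6 in library 1 and 2.65% in library 2 had a Fabp4 UMI, against 9.60% and 1.06% without Cxcr6, and 6.90% (2 of 29) and 0% (0 of 22, which allows up to 15.4%) of B cell-like cells. Fabp4 made by T cells and Fabp4 from other cells cannot be told apart in these counts.

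Cd36 had 2, 4, 10 and 30 UMIs in the 4 classes of library 1 (2.79, 2.86, 1.72 and 2.16 CPM) and 0, 0, 0 and 7 UMIs in library 2. The 0 counts allow up to 9.41, 1.82 and 0.452 CPM in Foxp3-positive cells with Il1rl1, those without and Foxp3-zero cells with Cxcr6. B cell-like cells held 8.25 and 23.0 CPM, from only 2 and 3 UMIs. No class comparison called Cd36, with log2 differences of 0.01 ± 1.46 for Il1rl1 (edgeR adjusted p = 1) and -0.77 ± 0.62 for Cxcr6 (edgeR adjusted p = 0.346). In library 1 the exact interval for the share of cells with a Cd36 UMI in B cell-like cells (0.846% to 22.8%) overlapped those of all 4 classes. In library 2 the share was 13.6% in B cell-like cells (2.91% to 34.9%, 3 of 22 cells). It was 0.126% (0.0506% to 0.259%) in Foxp3-zero cells without Cxcr6 and 0% (up to 0.279%) in those with Cxcr6. Cd36 of Foxp3-zero cells thus lay below that of the few B cell-like cells in library 2, and could not be told apart from it in library 1.

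**Figure D4:**
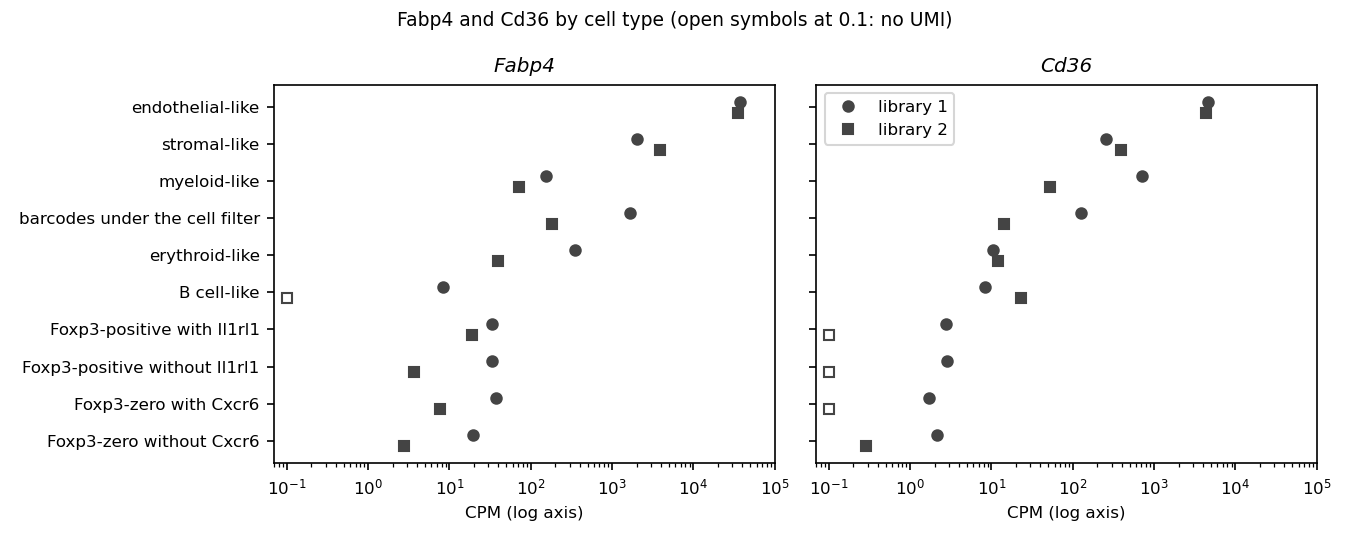
CPM (log axis) of Fabp4 and Cd36 in clusters of other cells, in barcodes under the cell filter and in the 4 T cell classes, circles for library 1 and squares for library 2, open symbols at 0.1 for no UMI. Endothelial-like cells reach 37764 and 4639 CPM, and the T cell classes stay at or under 36.9 and 2.86 CPM.

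The tissues were compared within a class of cells, since the share of each class differed between them. Only fat was digested with collagenase II, so tissue and digestion cannot be told apart in comparisons with spleen. Foxp3-positive cells had 4 hashed samples of at least 20 cells in SAT, VAT and SPLN and 2 in BAT (replicates 1 and 4). Of the 9 genes, 5 passed the filter on low counts. The comparisons with spleen share its samples, so they are not independent of one another.

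In Foxp3-positive cells VAT exceeded spleen in the storage genes. Plin2 stood at 139, 177, 49.1 and 43.2 CPM in VAT replicates 1 to 4 and at 15.5, 15.5, 36.6 and 12.1 CPM in spleen, with no overlap (102 ± 66.6 against 19.9 ± 11.2, SD, n = 4 each). Both VAT samples of experiment 1 lay above both of experiment 2. The log2 difference was 2.18 ± 0.43 (edgeR adjusted p = 0.000803) and was called without any 1 of the 14 samples. Of the 5 genes tested 3 were called between VAT and spleen, all higher in VAT, where the test called 11.3% of all genes and 6.52% were higher. Cells with Il1rl1 made up 22.9% to 52.3% of the Foxp3-positive cells of VAT samples and 0% to 10.4% of those of spleen. Among Foxp3-positive cells without Il1rl1 alone, Plin2 stood at 56.6 ± 40.1 CPM in VAT and 17.9 ± 14.5 in spleen (SD, n = 4 each), a log2 difference of 1.55 ± 0.52 that was not called (edgeR adjusted p = 0.0636).

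Dgat1 stood at 49.8, 78.1, 54.3 and 47.2 CPM in VAT and at 5.16, 15.5, 13.3 and 16.2 CPM in spleen, again with no overlap (57.3 ± 14.1 against 12.5 ± 5.07, SD, n = 4 each). Its log2 difference was 2.05 ± 0.41 (edgeR adjusted p = 0.000893), called without any 1 sample and also among cells without Il1rl1 alone (1.92 ± 0.57, edgeR adjusted p = 0.0294). Acadl stood at 73.4, 106.5, 100.8 and 90.4 CPM in VAT and at 36.1, 27.9, 73.2 and 48.6 CPM in spleen, where replicate 3 came close to the lowest VAT sample. The difference of 0.96 ± 0.25 (edgeR adjusted p = 0.0116) was lost without VAT replicate 2 or SPLN replicate 2 (edgeR adjusted p = 0.0578 to 0.0809), with DESeq2 (adjusted p = 0.0608) and among cells without Il1rl1 (edgeR adjusted p = 0.298).

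SAT exceeded spleen in Fabp5 and Acadl, 2 of the 5 genes tested, where the test called 9.11% of all genes and 5.39% were higher. Fabp5 stood at 99.7, 109, 114 and 9.73 CPM in SAT replicates 1 to 4 and at 10.3, 40.3, 36.6 and 8.10 CPM in spleen. SAT replicate 4 lay among the spleen samples and the other 3 lay above all of them. The log2 difference of Fabp5 was 1.57 ± 0.46 (edgeR adjusted p = 0.0291) and was lost without any 1 of 6 samples (SAT replicates 1, 2 and 3 and SPLN replicates 1, 2 and 4, edgeR adjusted p = 0.0679 to 0.118). It was also lost with stricter hashtag calls (edgeR adjusted p = 0.0525) and with at least 40 cells per sample (1.24 ± 0.51, edgeR adjusted p = 0.16). Acadl stood at 90.4, 50.7, 110.3 and 107 CPM in SAT, so that SAT replicate 2 overlapped with spleen. Its difference of 0.91 ± 0.26 (edgeR adjusted p = 0.0235) was lost without any 1 of 5 samples (SAT replicates 1, 3 and 4 and SPLN replicates 2 and 4, edgeR adjusted p = 0.0505 to 0.137) and with DESeq2 (adjusted p = 0.124).

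Plin2 at 49.9, 54.3, 28.6 and 94.0 CPM and Dgat1 at 28.0, 25.3, 32.7 and 55.1 CPM in SAT were not called against spleen (log2 differences 1.43 ± 0.48 and 1.37 ± 0.45, edgeR adjusted p = 0.058 and 0.0548). The Plin2 samples overlapped in SPLN replicate 3 and the Dgat1 samples did not overlap. The BAT samples held 38.4 and 19.6 CPM of Plin2, 25.6 and 0 CPM of Dgat1, 57.6 and 9.82 CPM of Fabp5 and 51.2 and 39.3 CPM of Acadl. No gene was called between BAT and any other tissue or between SAT and VAT, where edgeR called 0.354% of all genes (BAT and SPLN), 2.12% (BAT and SAT), 2.87% (BAT and VAT) and 0.298% (SAT and VAT). At an unadjusted p under 0.05 there were 0, 0, 3 and 2 genes in these pairs, and DESeq2 called 0 in each. Acsl4, at 54.3 ± 18.8 CPM in VAT, 38.8 ± 12 in SAT and 37.3 ± 19.6 in spleen (SD, n = 4 each), was called in no pair.

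**Figure D5:**
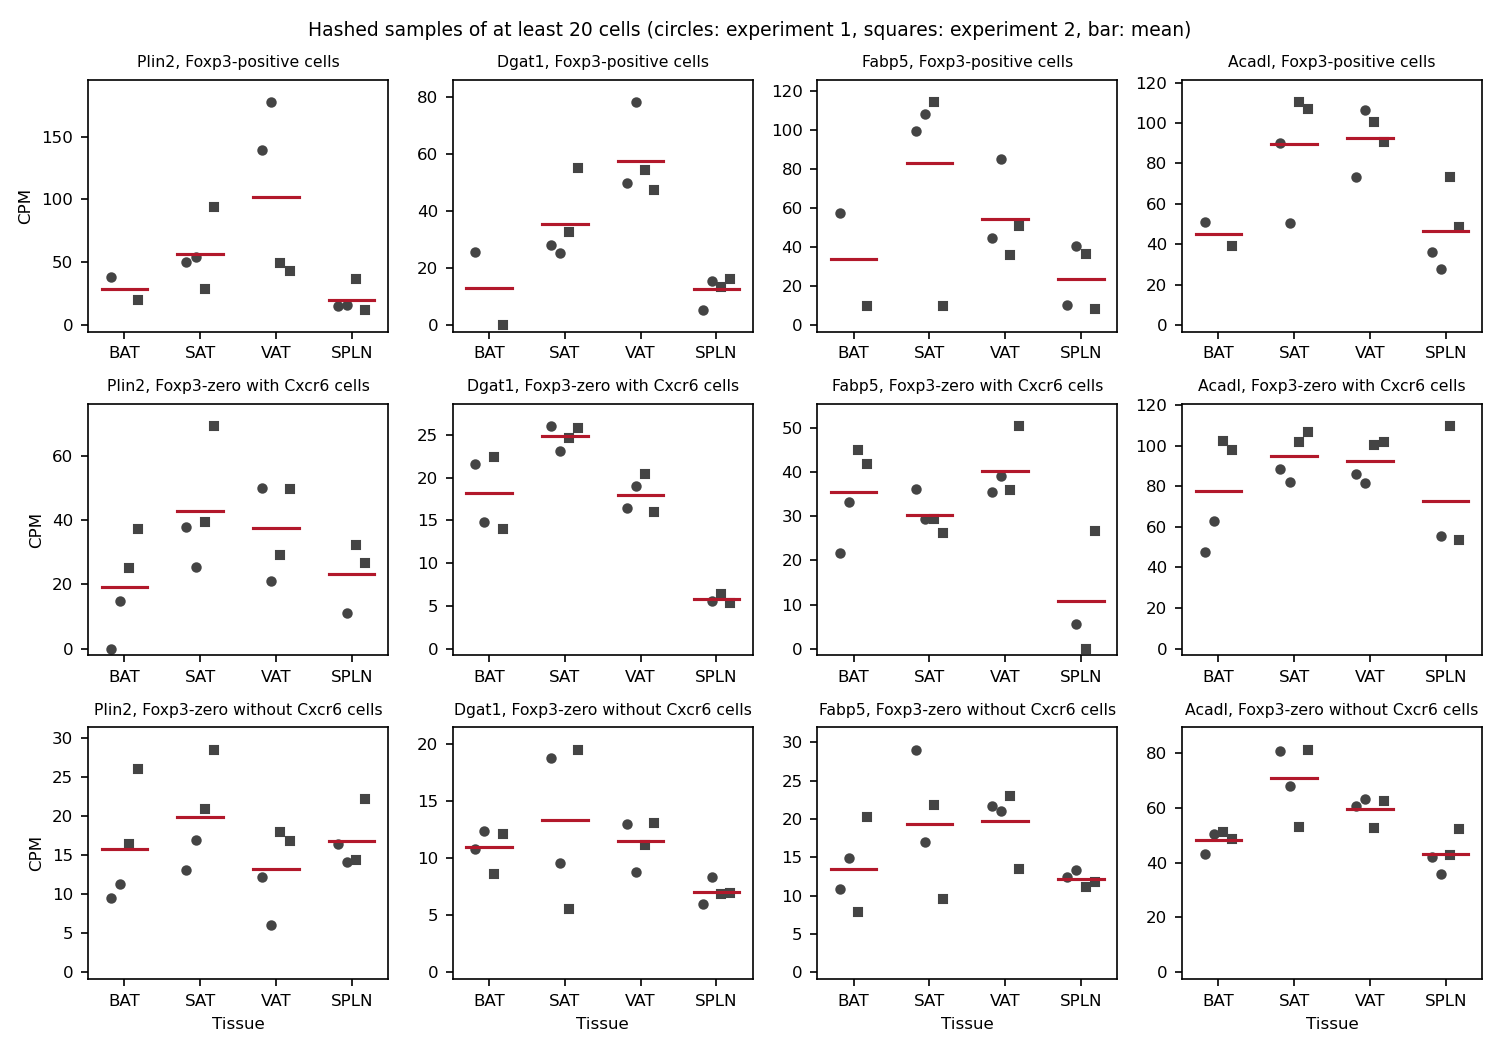
CPM of Plin2, Dgat1, Fabp5 and Acadl (columns) per hashed sample of at least 20 cells in Foxp3-positive cells, Foxp3-zero cells with Cxcr6 and Foxp3-zero cells without Cxcr6 (panel rows), circles for experiment 1, squares for experiment 2, bars for the mean. In Foxp3-positive cells the VAT samples of Dgat1, from 47.2 to 78.1 CPM, lie above all spleen samples.

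In Foxp3-zero cells with Cxcr6 fat and spleen differed in Dgat1 and Fabp5, and 6 of the 9 genes could be tested. Dgat1 stood at 26.0, 23.2, 24.6 and 25.8 CPM in SAT and at 5.53, 6.45 and 5.34 CPM in SPLN replicates 2 to 4, each of the latter from 1 UMI. The SAT samples lay close together and above these spleen samples. The exact intervals of the spleen values reached up to 30.8, 35.9 and 29.7 CPM, above every SAT value, so counting error alone could close the gap in any 1 sample. SPLN replicate 1, left out of the fit with 17 cells, held 15.1 CPM from 2 UMIs, also below SAT. The log2 difference of 2.08 ± 0.58 (edgeR adjusted p = 0.0222) was the 1 call among the 6 genes, where the test called 6.98% of all genes and 4.07% were higher. It was lost without any 1 of the 3 spleen samples (edgeR adjusted p = 0.0768 to 0.118), with DESeq2 (adjusted p = 0.152) and with stricter hashtag calls (edgeR adjusted p = 0.211).

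Fabp5 stood at 35.5, 39.2, 36.0 and 50.5 CPM in VAT and at 5.53, 0 and 26.7 CPM in SPLN replicates 2 to 4, without overlap. Its log2 difference was 1.82 ± 0.51 (edgeR adjusted p = 0.0257), the 1 call of 6 where the test called 5.97% of all genes and 3.49% were higher. It was lost without VAT replicate 4 or SPLN replicate 2 or 3 (edgeR adjusted p = 0.0557 to 0.183), with DESeq2 (adjusted p = 0.0588) and with stricter hashtag calls (edgeR adjusted p = 0.123). Both comparisons rest on spleen sums of 155075 to 187331 UMIs, in which Fabp5 had 1, 0 and 5 UMIs. Plin2 in this class stood at 42.9 ± 18.6 CPM in SAT, 37.4 ± 14.6 in VAT, 19.3 ± 15.8 in BAT (SD, n = 4 each) and 23.3 ± 11 in spleen (SD, n = 3). The ranges of Plin2 overlapped between all tissues, with 0 CPM in BAT replicate 1 and 69.3 CPM in SAT replicate 4 at the ends. Acadl ran from 47.5 CPM in BAT replicate 1 to 109.6 CPM in SPLN replicate 3, and Plin2 and Acadl were called in no pair of tissues. No gene of the set was called between BAT and spleen (edgeR called 2.06% of all genes), BAT and SAT (1.09%), BAT and VAT (0.802%) or SAT and VAT (2.83%). In these pairs 2, 1, 1 and 2 genes had an unadjusted p under 0.05, and DESeq2 called 0.

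Foxp3-zero cells without Cxcr6 had the deepest sums, 940368 to 4582680 UMIs per hashed sample, and 7 of the 9 genes could be tested. Acadl was the gene with the clearest tissue order. It stood at 80.6, 68.1, 53.0 and 81.1 CPM in SAT, 59.7 ± 4.89 in VAT, 48.4 ± 3.57 in BAT and at 41.9, 35.9, 42.7 and 52.4 CPM in spleen (SD, n = 4 each). All SAT samples lay above all spleen samples, SAT replicate 3 only just. SAT exceeded spleen by 0.60 ± 0.12 (log2, edgeR adjusted p = 0.000559), a call made without any 1 of the 16 samples. VAT exceeded spleen by 0.40 ± 0.12 (edgeR adjusted p = 0.0203), lost without any 1 of 5 samples (VAT replicates 1, 2 and 4 and SPLN replicates 2 and 3, edgeR adjusted p = 0.0501 to 0.0801). BAT lay below SAT by -0.43 ± 0.13 (edgeR adjusted p = 0.0162), lost without BAT replicate 1 or SAT replicate 1 or 4 (edgeR adjusted p = 0.0552 to 0.13) and with stricter hashtag calls (edgeR adjusted p = 0.0716). Neighbours in this order were not called for Acadl (edgeR adjusted p = 0.547 for SAT and VAT, 0.248 for VAT and BAT and 0.474 for BAT and spleen). The share of Foxp3-zero cells with Cxcr6, in which Acadl was higher, was 30.8% to 52.4% in SAT and 27.7% to 46.5% in VAT. It was 6.67% to 10.6% in BAT and 3.78% to 5.87% in spleen. Cells whose Cxcr6 was missed remain in this class, and their part in the order of Acadl was not tested.

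Dgat1 in these cells stood at 18.7, 9.57, 5.58 and 19.5 CPM in SAT and at 5.98, 8.34, 6.82 and 6.98 CPM in spleen, so that SAT replicate 3 lay below all spleen samples. The log2 difference of 0.85 ± 0.28 (edgeR adjusted p = 0.0276) was lost without SAT replicate 1 or 4 or SPLN replicate 1, 3 or 4 (edgeR adjusted p = 0.0563 to 0.403). Together with Acadl it made 2 of 7 genes called between SAT and spleen, where the test called 22.4% of all genes and 12.4% were higher. Fabp5 stood at 21.6, 21.0, 23.0 and 13.5 CPM in VAT and 12.2 ± 0.96 CPM in spleen (SD, n = 4). Its difference of 0.70 ± 0.25 (edgeR adjusted p = 0.0455) was lost without any 1 of 8 samples (BAT replicate 2, VAT replicates 1 to 3 and all 4 of spleen, edgeR adjusted p = 0.0535 to 0.272), with DESeq2 (adjusted p = 0.0918) and on thinned counts (edgeR adjusted p = 0.108). With Acadl it made 2 of 7 genes between VAT and spleen, where 22.1% of all genes were called and 11.9% were higher, while Acadl was the 1 of 7 between BAT and SAT, where 18.9% were called and 10.6% were lower in BAT. With counts this small, these shares are read as no different from the background of their comparisons.

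Plin2 did not follow the tissues in this class. It stood at 19.9 ± 6.59 CPM in SAT, 16.8 ± 3.77 in spleen, 15.9 ± 7.43 in BAT and 13.3 ± 5.40 in VAT (SD, n = 4 each), with overlapping ranges. Acsl4 stood at 35.9 ± 6.61 in SAT, 34.6 ± 5.65 in VAT, 30.4 ± 2.88 in spleen and 29.3 ± 3.17 CPM in BAT, and Acsl1 between 4.04 and 14.0 CPM. Fabp4 was split by experiment in every tissue, at 13.4 to 25.3 CPM in replicates 1 and 2 and 0.368 to 4.98 CPM in replicates 3 and 4. No gene of the set was called between BAT and spleen (edgeR called 7.13% of all genes), BAT and VAT (18.9%) or SAT and VAT (1.5%). In these pairs 1, 0 and 1 genes had an unadjusted p under 0.05, and DESeq2 called 0.

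Of 78 other genes of lipid metabolism, listed by role, 57 were tested between the classes. With Il1rl1, 4 of the 57 were called, all higher, where 5.48% of all genes were called and 2.98% were higher. The median log2 difference of the 57 was 0.09. Hilpda, whose product inhibits lipolysis and coats droplets, was higher by 1.96 ± 0.21 (edgeR adjusted p = 5.01e-07), and Etfb, an electron carrier of fatty acid oxidation, by 0.88 ± 0.16 (edgeR adjusted p = 0.000562). The regulators Pparg and Hif1a differed by 2.61 ± 0.50 (edgeR adjusted p = 0.00123) and 0.47 ± 0.13 (edgeR adjusted p = 0.0245). None of the 6 uptake, 6 activation, 5 lipolysis or 9 synthesis genes tested by edgeR was among the 4.

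With Cxcr6, 25 of the 57 were called, 21 higher and 4 lower, a share close to the 41.0% of all genes, with a median of 0.12. The oxidation group had 8 of 17 higher, among them Etfb (0.87 ± 0.08), Cpt1a, the gate of long-chain fatty acids into mitochondria (0.75 ± 0.13), and Decr1 (0.74 ± 0.20). The activation list, which also holds Acot7, a thioesterase that splits acyl-CoA, was split. Acot7 (1.94 ± 0.08) and the synthetase Acsbg1 (1.84 ± 0.17) were higher and the synthetase Acsl3 was lower (-2.01 ± 0.26). So was lipolysis, with Abhd5, an activator of the lipase ATGL, higher (0.58 ± 0.19) and its inhibitor G0s2 (-2.27 ± 0.33) and the lysosomal lipase Lipa (-1.41 ± 0.11) lower. Of the storage genes, Hilpda (0.99 ± 0.11), Agpat2 (0.96 ± 0.17) and Lpin2 (0.61 ± 0.14) were higher, and of the regulators Pparg (3.11 ± 0.40), Rxra (1.67 ± 0.21) and Hif1a (0.42 ± 0.09). In the remaining groups Got2, listed for uptake (0.62 ± 0.09), and Elovl1 (0.37 ± 0.12) and Acly (0.32 ± 0.09), listed for synthesis, were higher.

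Between the Foxp3-positive class with Il1rl1 and the Foxp3-zero class with Cxcr6, 4 of the 57 were called, all higher. There the test called 10.8% of all genes and 5.42% were higher. The 4 were Pparg at 2.47 ± 0.42, Hilpda at 1.65 ± 0.17, Hif1a at 1.27 ± 0.12 and Etfb at 0.44 ± 0.13. Between the classes without these receptors 13 of the 57 were called, 9 higher and 4 lower, where 16.1% of all genes were called and 9.16% were higher. Acsbg1 (1.93 ± 0.25), Acot7 (1.27 ± 0.13), Pparg (2.97 ± 0.60) and Hilpda (0.68 ± 0.18) were among the higher and Acss2 (-0.90 ± 0.19) and the medium-chain dehydrogenase Acadm (-0.72 ± 0.17) among the lower. In the tissue comparison of Foxp3-positive cells 3 of 24 tested were called between VAT and spleen, all higher in VAT. They were Hilpda at 3.05 ± 0.44, Acot7 at 1.86 ± 0.29 and Etfb at 1.13 ± 0.20, where 11.3% of all genes were called and 6.52% were higher. Between SAT and spleen 4 of 24 were called, all higher in SAT, where 9.11% of all genes were called and 5.39% were higher. They were Acot7 at 1.77 ± 0.30, Hilpda at 1.70 ± 0.52, Acadvl at 1.27 ± 0.40 and Etfb at 1.03 ± 0.20. Hilpda was also lower in BAT than in VAT by -2.45 ± 0.67 (edgeR adjusted p = 0.0406). Acot7 and Hilpda were called higher in fat in Foxp3-zero cells too. Without Cxcr6, Acot7 exceeded spleen by 2.16 ± 0.23 in SAT and 1.88 ± 0.23 in VAT, and Hilpda by 1.01 ± 0.17 and 0.85 ± 0.17. With Cxcr6, Acot7 exceeded spleen by 2.04 ± 0.34 in SAT and 1.75 ± 0.36 in VAT, and Hilpda in VAT alone by 1.44 ± 0.39.

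Over the 27 sums of class, tissue and experiment with at least 20 cells, the genes of the set with a mean of at least 20 CPM were compared with 5512 others, as a description of sums that share libraries and samples. Dgat1 was most like Hilpda (Pearson r = 0.88 of log2(CPM + 1)), Jund (0.88) and Dhrs7 (0.87). Among the genes closest to Acadl were Ap2m1 (0.85) and Bloc1s2 (0.85). Plin2 was most like Cmtm7 (0.82), Hilpda (0.82) and Ltb4r1 (0.81). Fabp5 was most like H2az1 (0.88), Vcpkmt (0.87) and Emd (0.87), and Acsl4 most like Tmem248 (0.85), Gse1 (0.78) and Arih2 (0.76). Among themselves Plin2 and Dgat1 had r = 0.77, Dgat1 and Acadl 0.72, Dgat1 and Fabp5 0.71, and Plin2 and Fabp5 0.70. Acsl4 stood apart from Plin2, with r = 0.18.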

How the data were processed

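Raw UMI counts per gene and barcode were deposited by the authors, made with Cell Ranger 6.1.0 per the file headers; mm10, bcl2fastq and Seurat are named in the submitters' processing notes. Cells with at least 500 genes, 1000 UMIs and under 10% mitochondrial counts were kept and clustered (scanpy 1.11.5, leidenalg 0.10.2, 2000 variable genes, 30 components, 15 neighbours, resolution 1). Clusters were named from fixed marker lists, without a doublet caller: cells with hashtags of several samples were left out (395 and 1477).

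Hashtag counts, matched to samples by number, were called positive at 4 robust SDs (weak hashtags at 2, with all others under 3). Stricter calls used 5 and 3, a rule that differs in wording from the planned one because a mixture model fitted the hashtags poorly. The 4 classes use T cells with a hashtag of 1 sample or an unresolved one, and the tissues only the former. Hashed samples of at least 20 cells entered a tissue fit.

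Counts were summed and tested with edgeR 4.0.16 (TMM, filterByExpr with a minimum count of 10, quasi-likelihood, R 4.3.3), with library or experiment as a term. The class fit had 3 residual degrees of freedom. DESeq2 1.42.0 was an alternative, as were other filters, scalings, thinning to 1300 UMIs, left-out samples and blocks. Some alternatives, listed in the closing section, were chosen after seeing the data. The main fits did not pair hashed samples of different tissues by number. Cells with and without Il1rl1 or Cxcr6 come from the same hashed samples, so the block of hashed samples is a true pairing. The tests were tried on simulated data. Exact intervals, and the limit that 0 UMIs allow (3 counts), cover counting error only. The 2 libraries held 29153747 and 43879975 UMIs.

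All 9 genes were described. Of the other lipid genes, up to 3 called genes per group and comparison with the largest change were named, and likeness was ranked by Pearson's r of log2(CPM + 1). In that ranking 1 gene is not reported here. The genes and lists were chosen with earlier results of these data known.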

Additional observations from a re-analysis of the deposited data

Results flagged for a closer look

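Values of 4 samples were tested for a sample far from the others, over 75 groups of a gene, class and tissue, and chance alone gives about 1 such group in 20. A total of 4 values stood apart. Fabp5 in Foxp3-positive cells of SAT replicate 4 was 9.73 CPM (3 UMIs), below 99.7 to 114 CPM in the other SAT samples. Plin2 in Foxp3-positive cells without Il1rl1 of VAT replicate 1 was 116 CPM (22 UMIs), above 30 to 40.3 CPM in the other VAT samples. Plin2 in Foxp3-positive cells of SPLN replicate 3 was 36.6 CPM (11 UMIs), above 12.1 to 15.5 CPM in the other spleen samples. Acsl1 in Foxp3-zero cells without Cxcr6 of VAT replicate 2 was 14.0 CPM (16 UMIs), above 4.67 to 5.91 CPM in the other VAT samples.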

How the results depend on the processing

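Of all alternative values, 614 kept their side of the threshold or, in fits with no test, lay within the standard error of the main value. Another 80 lost the call, 2 gained it and 2 reversed, and 25 in fits with no test moved further than that error. Direction was checked only where a fit made a call, so a gene called in neither fit is among the 614 whatever its sign. The fits without the cluster of low UMI counts, on thinned counts with full classes and on Foxp3-positive cells without Il1rl1 were chosen after seeing the data. Counts below are of genes of the set called by edgeR (adjusted p under 0.05) unless another tool is named.

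For Il1rl1 the count was 3, and 1 with the hashed sample as a replicate block. For Cxcr6 it was 5, and 3 with no replicate block (without the library term). With cells thinned to 1300 UMIs and the classes called on the thinned counts, 0 genes were called for Il1rl1, 2 for Cxcr6, 0 between the Foxp3-positive class with Il1rl1 and the Foxp3-zero class with Cxcr6 and 0 between the classes without either. There Fabp5 reversed, to a log2 difference of -0.80 for Il1rl1 (adjusted p = 0.89) and -0.87 against cells with Cxcr6 (adjusted p = 0.845). With classes called on full counts, thinning left 1 call for Il1rl1 and 1 between the classes without either. Thinned fits tested 5363 and 8078 genes in place of 11543.

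Between tissues, Foxp3-zero cells without Cxcr6 gave 5 calls, 2 on thinned counts with full classes, and 2 to 6 when 1 sample was left out. Foxp3-zero cells with Cxcr6 gave 2 calls, 0 with DESeq2 and with stricter hashtags, 4 without the cluster of low UMI counts, and 0 to 3 when 1 sample was left out. Foxp3-positive cells gave 5 calls, 10 with no filter on low counts, 3 with DESeq2, 3 among cells without Il1rl1 alone, and 2 to 8 when 1 sample was left out. In 3 settings a count of 0 says nothing of these calls. With at least 40 cells per sample no spleen sample of cells with Cxcr6 enters, and on both kinds of thinned counts the called genes of Foxp3-positive cells and of cells with Cxcr6 were too low to be tested (0 calls each). On thinned counts with full classes Dgat1 in cells without Cxcr6 was not tested either. Samples of the same replicate number in different tissues did not deviate together (r = -0.24 to 0.13 over all 3 classes). With 2 samples per tissue and experiment this check cannot exclude a pairing by number, and the main fits used none. A replicate block on that number gave 5, 3 and 5 calls, in the order of the classes above, but the Fabp5 call between VAT and spleen in cells without Cxcr6 was lost (adjusted p = 0.0643). Thinning kept 59 of 99 levels within 1 SD of their value, and a looser cell filter 108 of 108.

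The depth limits Dgat2, Cd36 and Acsl1, with few UMIs per class, and every spleen sum of cells with Il1rl1 or Cxcr6. The library term leaves 3 residual degrees of freedom in the class fit, and each class rests on 2 libraries.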

Other observations

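Among the clusters left out of the T cells, Plin2 and Fabp5 were also high in other cell types. Plin2 stood at 337 and 140 CPM in myeloid-like, 244 and 182 CPM in endothelial-like and 193 and 20.7 CPM in stromal-like cells of libraries 1 and 2. Fabp5 stood at 1662 and 1001 CPM in endothelial-like, 788 and 41.5 CPM in myeloid-like and 96.4 and 82.8 CPM in stromal-like cells. Cd36 in myeloid-like cells was 702 CPM in library 1 and 51.8 CPM in library 2. These clusters held 13 to 82 cells per library.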
